A study of Homo sapiens with 6 samples.

Results

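A set of 10 named markers of neural crest stem-like, drug-tolerant or slow-cycling melanoma cells were followed in SK-MEL-28, an established human melanoma cell line. They were taken by gene symbol from the table of read counts, which lists 60504 genes and holds all 10: the surface proteins PROM1, NGFR, AQP1, GFRA2 and CD44, the retinaldehyde dehydrogenases ALDH1A1 and ALDH1A3, the nuclear receptor RXRG, the cytoskeletal protein NES and the histone demethylase KDM5B. The data set held 3 libraries from cells given an empty vector plasmid (labelled EV) and 3 from cells given a plasmid that expresses HDAC8 (labelled HDAC8). Both populations were kept in hygromycin after transfection, no drug or stress was labelled for either, and the sources used here do not state whether a population was 1 clone or a pool. The labels number the biological replicates 1 to 3 within each group but do not name separate transfections, so the p-values measure the spread between these libraries.

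Library totals lay between 20850018 and 29822917 counts. Levels are given as CPM, read counts relative to the TMM-scaled library size. A count of 3, used as the detection floor, was worth 0.102 to 0.148 CPM, and covers counting error only. The gene that was introduced, HDAC8, did not separate the groups: the EV-labelled mean was 14.5 ± 2.48 CPM (SD, n = 3) and the HDAC8-labelled mean 14.3 ± 0.881 CPM (SD, n = 3; edgeR adjusted p = 0.924), and leaving out EV replicate 1 turned its log2 fold change from -0.02 to 0.080. Whether reads from the plasmid were counted on this gene is not given in the sources used here. Directions are therefore those of the labels, libraries labelled HDAC8 over libraries labelled EV. All 9 melanocyte lineage markers looked up were tested, and they did not move in 1 direction. At the adjusted p used below 4 were higher, PMEL, SOX10, TYR and TYRP1, and 3 were lower, DCT, MITF and S100B. Of all tested genes, 11.1% were higher and 11.7% lower at that limit. TYRP1 was near the floor, with 5, 12 and 9 counts in the EV-labelled libraries and 46, 31 and 19 in the HDAC8-labelled ones. It passed the filter on low counts used below only through the latter, so that it could be called only as higher. The largest change was in DCT, a pigment enzyme, at 233 CPM with the EV label and 68.3 CPM with the HDAC8 label, and PMEL, a melanosome protein, was at 4149 and 5254 CPM. Of 13 markers of immune, endothelial, epithelial and fibroblast cells, CD3E was at 0 in every library, and PTPRC, CDH5, KRT5 and EPCAM had at most 1 count in any library. Others were present. With the EV and the HDAC8 label, CD68 was at 27.0 and 26.5 CPM, PDGFRB at 5.0 and 4.5, VWF at 2.6 and 2.8, and COL1A1 at 1.7 and 1.2. The summed level of the 13 was 73.0 to 74.0 CPM in the EV-labelled libraries and 84.7 to 85.8 CPM in the HDAC8-labelled ones. LUM, a matrix proteoglycan, was at 36.7 and 49.7 CPM and was the only one of the 5 tested that passed the adjusted p (log2 fold change 0.44).

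Melanoma cells can lose pigment cell features and take on those of the neural crest, the embryonic population from which melanocytes arise. Cells in such states carry the neurotrophin receptor NGFR and other neural crest proteins, and have been linked with survival under BRAF and MEK inhibitors. A further, slow-cycling population has been described by high KDM5B, and aldehyde dehydrogenase activity and PROM1 have been used to sort tumour cells with stem-like behaviour. These markers do not describe 1 state, and a cell can carry some of them without the others.

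The markers moved in opposite directions. NGFR was 6.24-fold lower in the HDAC8-labelled libraries, and PROM1 and CD44 were lower by smaller amounts. ALDH1A3 was 2.53-fold higher, NES 1.72-fold and KDM5B 1.49-fold higher, and RXRG rose slightly. ALDH1A1 was at a lower mean and AQP1 at a higher mean without passing the test, and GFRA2 had no read in any library.

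**Figure D1:**
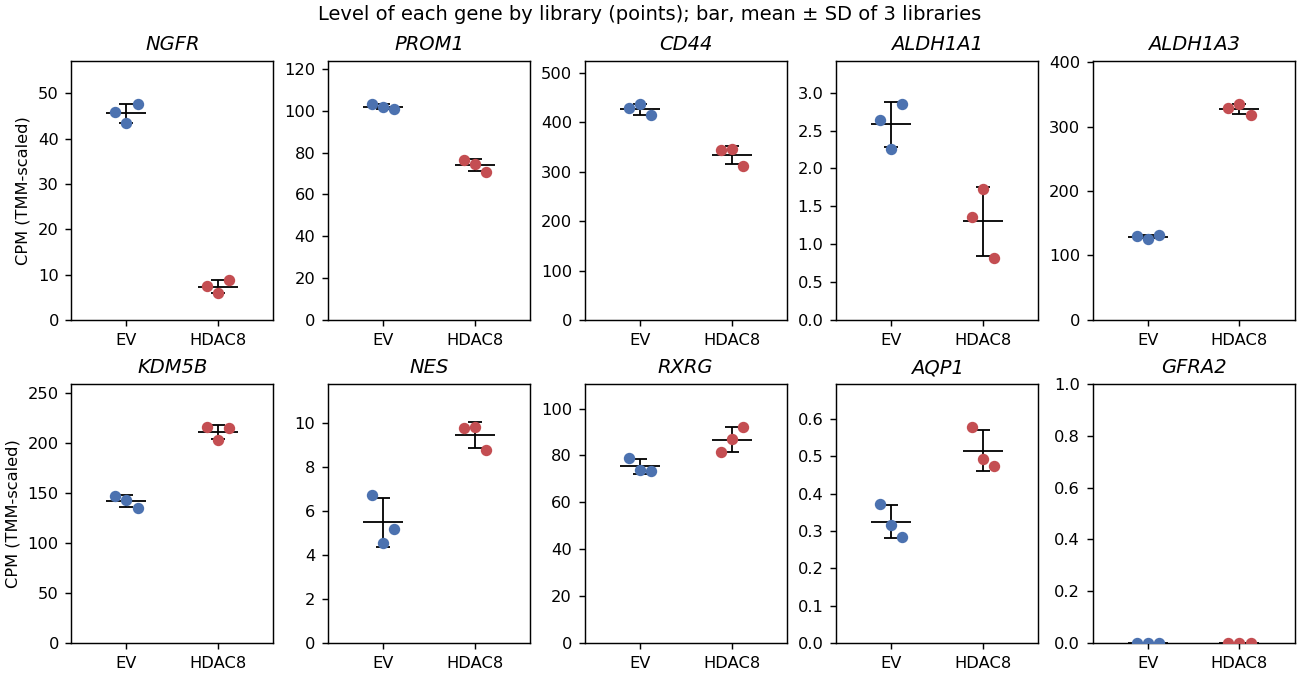
Each panel plots 1 marker in CPM against the label of the libraries, with a point for each library and a bar for the mean and SD of 3 libraries; each axis starts at 0. NGFR, PROM1, CD44 and ALDH1A1 lie lower in every HDAC8-labelled library than in any labelled EV, ALDH1A3, KDM5B, NES, RXRG and AQP1 lie higher, and GFRA2 is at 0 throughout.

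Of the 10 genes, 9 passed the filter on low counts and were tested among 16195 genes with edgeR's quasi-likelihood test, with p adjusted over all of them. With 0.05 as the limit for the adjusted p and 0.58 as the smallest log2 fold change in either direction, 2 of the markers were higher (ALDH1A3 and NES), against 4.07% of all tested genes, and 1 was lower (NGFR), against 3.45%. At the adjusted p alone, 4 were higher, with RXRG and KDM5B added, against 11.1% of all tested genes, and 3 were lower, with PROM1 and CD44 added, against 11.7%. The groups did not overlap in any of the 9: 5 markers were above in every HDAC8-labelled library and 4 in every EV-labelled library, where 18.7% and 19.4% of all tested genes were separated in those directions. AQP1 is among the 5 and reached the filter's level only in the HDAC8-labelled libraries, so that it could pass only by being higher there. The median log2 fold change of the 9 was 0.20, beside 0.0091 over all tested genes, with a range from -2.63 to 1.34. That median counts AQP1, which the filter let in only as higher, so it does not measure a shift of the markers. Of the 9 values, 5 were positive and 4 negative.

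**Figure D2:**
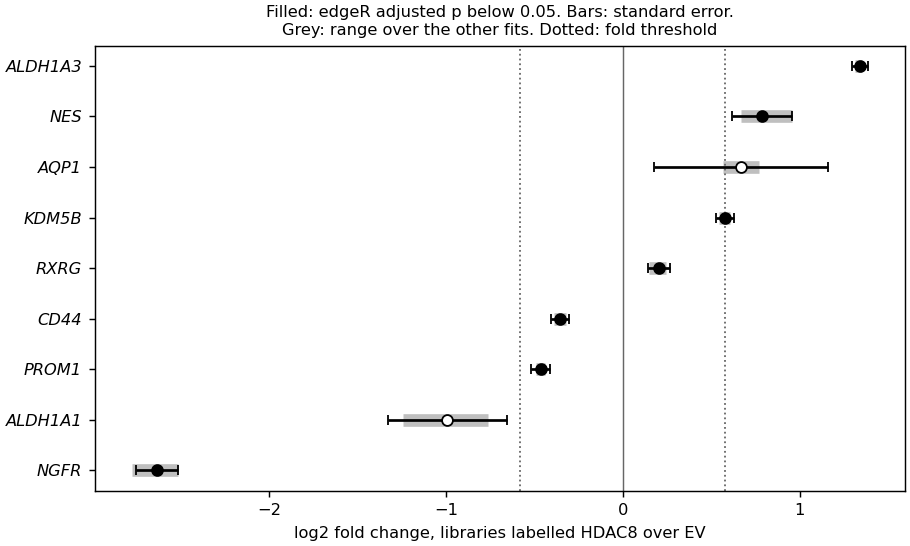
Log2 fold change of the 9 tested markers, libraries labelled HDAC8 over EV, with the standard error as bars, filled points for an edgeR adjusted p below 0.05 and the range over the other fits in grey; the dotted lines mark 0.58 in either direction. The values run from -2.63 for NGFR to 1.34 for ALDH1A3, and KDM5B lies at the dotted line.

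NGFR (ENSG00000064300) lies on chromosome 17 from 49495293 to 49515008 of GRCh38 and encodes the low-affinity neurotrophin receptor, also called CD271, the surface protein by which neural crest stem-like melanoma cells are most often sorted. Its level was 45.9, 43.4 and 47.6 CPM in the EV-labelled libraries and 7.40, 5.82 and 8.71 CPM in the HDAC8-labelled ones. Every HDAC8-labelled library was far below every EV-labelled library, at 118 to 218 counts against 960 to 1170. The log2 fold change was -2.63 (standard error 0.12, edgeR adjusted p = 2.23e-08), the largest in size among the markers. It stayed between -2.78 and -2.51 over 11 other fits. In such bulk libraries, fewer cells that carry NGFR and less NGFR RNA per cell cannot be told apart, and the same holds for every marker below.

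Genes that act with NGFR were looked up as a list of 19 neurotrophins, co-receptors and adaptors. Of these, 10 were tested, 2 were lower and 0 higher at both thresholds, and at the adjusted p alone 4 were lower and 2 higher. Over all tested genes, 3.45% were lower and 4.07% higher at both thresholds, and 11.7% were lower and 11.1% higher at the adjusted p alone. The counts of every list below stand beside these same shares. The median log2 fold change was -0.13. BDNF, a neurotrophin, fell from 7.24 ± 1.66 CPM (SD, n = 3) to 1.15 ± 0.245 CPM (SD, n = 3), a log2 fold change of -2.65 (standard error 0.26, edgeR adjusted p = 1.86e-05), close in size to that of NGFR. LINGO1, which forms a receptor complex with NGFR in neurons, fell from 15.3 ± 0.836 to 10.2 ± 2.45 CPM (SD, n = 3), a log2 fold change of -0.60 (standard error 0.15, edgeR adjusted p = 0.0153). The neurotrophin receptor NTRK3 had no read in any library.

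GFRA2 (ENSG00000168546) encodes a co-receptor through which the GDNF family ligand neurturin signals, and is used as a marker of drug-tolerant neural crest stem-like cells. It had 0 counts in each of the 6 libraries, so it was not detectable at this depth and was not tested. The rest of its pathway was also sparse. Of 10 other GDNF family ligands and receptors, 3 were tested, 0 passed both thresholds, 1 was lower at the adjusted p alone, and the median log2 fold change was 0.13. The receptor tyrosine kinase RET, with which these co-receptors act, had 7 to 20 counts in the EV-labelled libraries and 1 to 8 in the HDAC8-labelled ones, and did not pass the filter. GFRA1 had 1, 0 and 0 counts in the EV-labelled libraries and 20, 11 and 6 in the HDAC8-labelled ones, and was not tested either. NCAM1, an adhesion molecule that can bind GDNF, fell from 67.2 ± 5.60 to 51.6 ± 3.79 CPM (SD, n = 3), below the fold threshold (log2 fold change -0.38, edgeR adjusted p = 0.00364).

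PROM1 (ENSG00000007062; chromosome 4, 15963076 to 16084378) encodes prominin 1 or CD133, a membrane protein of cell protrusions that has been used to sort stem-like tumour cells. Its level was 103, 102 and 101 CPM in the EV-labelled libraries and 76.4, 74.7 and 70.8 CPM in the HDAC8-labelled ones. The groups were separated and narrow, and the mean fell by 27.5% (log2 fold change -0.46, standard error 0.053, edgeR adjusted p = 6.34e-05), below the fold threshold. PROM1 has several start sites, and RefSeq promoter windows of 300 bases (250 before to 50 after a start, GRCh38.p14) were at hand for 4 of them. The study concerns JUN, TEAD and MITF sites, so each window was searched on both strands for TGANTCA (AP-1), GGAATG (TEAD), CACGTG and CATGTG (E-boxes bound by MITF). Of the 11 windows of 8 markers, only 1 held a match to any of these, an AP-1 match 189 bases before a start of PROM1, shown with 17 bases on each side and the match in capitals because it is the only one in the set, at chr4:16076284-16076324 on the minus strand.
PROM1: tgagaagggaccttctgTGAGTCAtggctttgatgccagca
Among all 35116 windows of the table, 7.71% held the AP-1 letters, 4928 windows the TEAD letters, 7.26% CACGTG and 11.1% CATGTG. A match is only a match of letters, and these data do not say whether a protein bound there. PROM1 shares 166 exonic bases with FGFBP2 on the same strand, and FGFBP2 went the other way, with 6.06 and 8.08 CPM in the groups labelled EV and HDAC8 (log2 fold change 0.41, edgeR adjusted p = 0.0797).

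CD44 (ENSG00000026508), on chromosome 11 from 35138882 to 35232402, encodes the main receptor for hyaluronan, a matrix polysaccharide, and is a marker of invasive and mesenchymal-like cells. It had the highest read count of the markers in the EV-labelled libraries, at 429, 437 and 415 CPM, against 343, 346 and 312 CPM in the HDAC8-labelled ones. The mean fell by 21.9% (log2 fold change -0.36, standard error 0.049, edgeR adjusted p = 0.000285), without overlap and below the fold threshold. Counts are per gene, so the splice forms of CD44 could not be compared.

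Among 18 genes of hyaluronan turnover, CD44 linkage and CD44 splicing, 15 were tested, 1 was higher and 2 were lower at both thresholds, and 4 were higher and 4 lower at the adjusted p alone. Their median log2 fold change was -0.19. CEMIP, which takes part in hyaluronan breakdown, fell from 87.4 ± 2.91 to 23.8 ± 1.95 CPM (SD, n = 3), a log2 fold change of -1.88 (standard error 0.071, edgeR adjusted p = 5.86e-09). ESRP1, an epithelial splicing regulator known for acting on CD44 transcripts, fell from 14.2 ± 1.30 to 6.25 ± 0.723 CPM (SD, n = 3), a log2 fold change of -1.18 (standard error 0.13, edgeR adjusted p = 5.98e-05). SPP1, osteopontin, a secreted protein that can bind CD44, rose from 26.6 ± 2.16 to 69.2 ± 3.09 CPM (SD, n = 3), a log2 fold change of 1.38 (standard error 0.074, edgeR adjusted p = 9.51e-08). These genes were thus found on both sides of 0.

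AQP1 (ENSG00000240583), on chromosome 7 from 30911853 to 30925517, encodes a water channel that is also a neural crest stem-like marker. It stood close to the limit of detection, with 8, 7 and 7 counts in the EV-labelled libraries and 17, 10 and 11 in the HDAC8-labelled ones. The log2 fold change of 0.67 had a standard error of 0.49 (edgeR adjusted p = 0.384). Of 13 other aquaporins, 2 were tested (AQP6 and AQP11) and neither passed the adjusted p, with a median log2 fold change of -0.41. This is a median of 2 genes only. AQP6 had 22, 23 and 27 counts in the EV-labelled libraries and 19, 9 and 18 in the HDAC8-labelled ones. It reached the filter's level in every library of the EV group only.

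ALDH1A3 and ALDH1A1 encode related enzymes that oxidize retinaldehyde to retinoic acid, and account for much of the aldehyde dehydrogenase activity by which stem-like cells are sorted. ALDH1A3 (ENSG00000184254) lies on chromosome 15 from 100877714 to 100916626, and ALDH1A1 (ENSG00000165092) on chromosome 9 from 72900671 to 73080442. Their RefSeq promoter windows are shown with each CG dinucleotide in capitals, because these related genes have unlike promoters. That of ALDH1A3 (chr15:100879581-100879880, plus strand) holds 46 CG dinucleotides and that of ALDH1A1 (chr9:72953004-72953303, minus strand) holds 7, where the median over all windows is 14.
ALDH1A3: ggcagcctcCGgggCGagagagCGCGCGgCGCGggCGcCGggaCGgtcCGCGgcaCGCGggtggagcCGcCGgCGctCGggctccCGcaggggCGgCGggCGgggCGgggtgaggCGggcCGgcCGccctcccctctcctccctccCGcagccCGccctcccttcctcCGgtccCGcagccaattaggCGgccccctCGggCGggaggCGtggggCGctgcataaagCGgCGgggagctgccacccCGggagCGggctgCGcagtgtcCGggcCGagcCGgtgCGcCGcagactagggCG
ALDH1A1: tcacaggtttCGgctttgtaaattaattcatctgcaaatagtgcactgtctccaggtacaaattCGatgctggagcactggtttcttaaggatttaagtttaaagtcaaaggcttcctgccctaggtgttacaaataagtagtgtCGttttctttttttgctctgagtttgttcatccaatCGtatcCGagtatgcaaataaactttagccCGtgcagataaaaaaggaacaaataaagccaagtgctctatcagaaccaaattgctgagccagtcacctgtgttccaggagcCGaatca
DNA methylation was not measured in these samples, and a link between CG content and the change of either gene was not tested.

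ALDH1A3 was at 131, 126 and 131 CPM in the EV-labelled libraries and at 329, 335 and 319 CPM in the HDAC8-labelled ones. Spread within a group was small beside the distance between the groups, and the log2 fold change was 1.34 (standard error 0.045, edgeR adjusted p = 2.67e-09), between 1.31 and 1.35 over 11 other fits. Its antisense gene ALDH1A3-AS1 shares 1715 exonic bases with it and rose as well, from 4.18 ± 0.224 to 13.8 ± 1.73 CPM (SD, n = 3), a log2 fold change of 1.72 (edgeR adjusted p = 4.37e-06). The strand setting of the counting is not given in the sources used here, so reads of this pair cannot be told apart with certainty. ALDH1A1 was at 2.65, 2.26 and 2.85 CPM in the EV-labelled libraries and at 1.36, 1.73 and 0.819 CPM in the HDAC8-labelled ones, which rest on 19 to 70 counts per library. The groups did not overlap, but its log2 fold change of -0.99 (standard error 0.34) narrowly missed the threshold (edgeR adjusted p = 0.0534). The adjusted p with edgeR was 0.0442 without HDAC8 replicate 2 and 0.0312 with at least 10 counts required in every library, and its range over the other fits was 0.0312 to 0.165.

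Of 17 other members of the aldehyde dehydrogenase family, 11 were tested. At both thresholds 1 was higher and 0 lower, against 4.07% and 3.45% of all tested genes. At the adjusted p alone 3 were higher and 0 lower, against 11.1% and 11.7%, and 8 did not pass it. The median log2 fold change was 0.040. The gene past both thresholds was ALDH1A2, a further retinaldehyde dehydrogenase, which rose from a low level of 15, 7 and 8 counts to 37, 40 and 51 counts (log2 fold change 2.01, standard error 0.46, edgeR adjusted p = 0.00755). Like AQP1, ALDH1A2 passed the filter on low counts only through the HDAC8-labelled libraries, and it is not among the genes tested when every library needed 10 counts.

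RXRG (ENSG00000143171), on chromosome 1 from 165400922 to 165445355, encodes retinoid X receptor gamma, a nuclear receptor that pairs with retinoic acid receptors and has been described as a driver of the neural crest stem-like state. Its level was 78.9, 73.7 and 73.4 CPM in the EV-labelled libraries and 81.4, 86.9 and 91.99 CPM in the HDAC8-labelled ones. The groups came close to each other, between EV replicate 1 and HDAC8 replicate 1. The log2 fold change was 0.20 (standard error 0.062, edgeR adjusted p = 0.0347), and this call was lost in 6 of 11 other fits. Blocking on the replicate number gave an edgeR adjusted p of 0.0721, and it was 0.0532, 0.117 and 0.139 without EV replicate 1, 2 and 3. It was 0.103 without HDAC8 replicate 2 and 0.0845 without HDAC8 replicate 3, and without HDAC8 replicate 1 it was 0.0184.

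The other retinoid genes, a list of 22 for the synthesis, binding, breakdown and sensing of retinoic acid, held 15 tested genes. At both thresholds 2 were higher and 1 was lower, at the adjusted p alone 7 were higher and 2 lower, and the median log2 fold change was 0.22. That median is raised by ALDH1A2 and other genes of few counts that passed the filter only through the HDAC8-labelled libraries. Besides ALDH1A2, with the limit given above, FABP5, a fatty acid carrier that can also carry retinoic acid, rose from 6.71 ± 1.19 to 15.7 ± 1.39 CPM (SD, n = 3), a log2 fold change of 1.22 (standard error 0.14, edgeR adjusted p = 8.50e-05). FABP5 has processed copies elsewhere in the genome with which it may share reads. RDH10, which makes the retinaldehyde that ALDH1A enzymes use, fell from 13.2 ± 0.507 to 7.94 ± 0.228 CPM (SD, n = 3), a log2 fold change of -0.74 (standard error 0.11, edgeR adjusted p = 0.000536). RXRA, the related receptor, rose with a log2 fold change of 0.42 (edgeR adjusted p = 0.00149), and for RXRB it was -0.0017 (edgeR adjusted p = 0.991).

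NES (ENSG00000132688), on chromosome 1 from 156668763 to 156677407, encodes nestin, an intermediate filament protein of neural and neural crest progenitors. It was at 6.73, 4.56 and 5.17 CPM in the EV-labelled libraries and at 9.78, 9.82 and 8.79 CPM in the HDAC8-labelled ones, a log2 fold change of 0.79 (standard error 0.17, edgeR adjusted p = 0.00529). EV replicate 1 lay nearest to the other group. The value stayed between 0.67 and 0.96 over 11 other fits, and both thresholds were passed in all 11. Of 9 other intermediate filament genes, 4 were tested, 0 passed both thresholds, 1 was lower at the adjusted p alone, and the median log2 fold change was -0.12. VIM, vimentin, with which nestin builds filaments, fell from 3597 ± 89.5 to 2878 ± 77.4 CPM (SD, n = 3), a log2 fold change of -0.32 (edgeR adjusted p = 6.11e-05).

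KDM5B (ENSG00000117139), on chromosome 1 from 202724495 to 202808487, encodes a demethylase that removes methyl groups from lysine 4 of histone H3, and high levels of it have been used to mark slow-cycling melanoma cells. It was at 148, 143 and 135 CPM in the EV-labelled libraries and at 216, 203 and 215 CPM in the HDAC8-labelled ones. The groups were well apart, and the log2 fold change was 0.5766 (standard error 0.050, edgeR adjusted p = 6.50e-06), just under the fold threshold of 0.58. It passed that threshold in 3 of 11 other fits, those with upper-quartile normalization (0.5846), without EV replicate 1 (0.6036) and without HDAC8 replicate 2 (0.5952). Its paralogues KDM5A and KDM5C had log2 fold changes of 0.035 and 0.13 (edgeR adjusted p = 0.681 and 0.0805), and neither passed the test. The small list that holds them and PROM2, a prominin with 0 to 9 counts that was not tested, had a median of 0.084.

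Set on a scale that allows for gene length, CPM per kilobase of merged exons, the order of the markers differed between the groups. In the EV-labelled libraries, CD44 was highest at 41.5 to 43.7 over the libraries, followed by RXRG at 27.3 to 29.3 and, as means, ALDH1A3 at 24.2, PROM1 at 13.7, NGFR at 11.0 and KDM5B at 5.70. NES at 0.985 and ALDH1A1 at 0.910 overlapped over the libraries, and AQP1 at 0.0994 was above GFRA2 at 0. In the HDAC8-labelled libraries, ALDH1A3 was highest at 61.4 ± 1.53 (SD, n = 3). CD44 at 33.4 and RXRG at 32.2 overlapped, PROM1 at 9.92 lay above KDM5B at 8.50, and NGFR at 1.77 and NES at 1.70 overlapped. Every other neighbour in both orders was separated in all 3 libraries. The merged exons hold all annotated transcripts, 24899 bases for KDM5B, so a gene with long rare transcripts is placed too low.

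**Figure D3:**
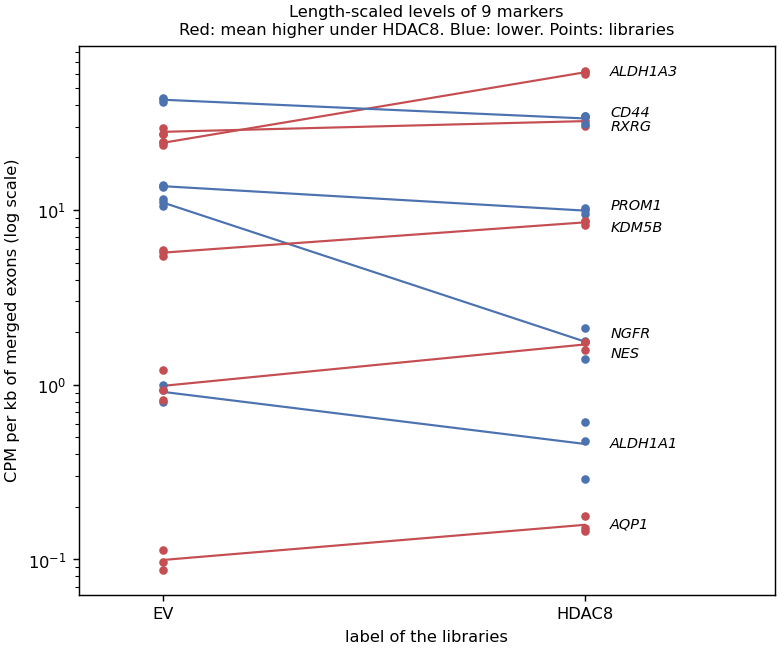
Level of 9 markers in CPM per kb of merged exons on a log scale against the label of the libraries, with a point for each library and a line through the means, red where the mean was higher in the HDAC8-labelled libraries and blue where lower. ALDH1A3 goes from 24.2 to 61.4 and passes CD44 and RXRG, NGFR drops from 11.0 to 1.77 to the level of NES, and GFRA2, at 0, is not drawn.

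Genes often followed beside these markers were also divided. Of 15 neural crest and Schwann cell precursor genes that encode no transcription factor, 11 were tested, 2 were higher and 1 was lower at both thresholds, and 4 were higher and 4 lower at the adjusted p alone, with a median log2 fold change of -0.082. ERBB3, the neuregulin receptor of Schwann cell precursors, rose from 287 ± 1.25 to 470 ± 11.6 CPM (SD, n = 3), a log2 fold change of 0.71 (standard error 0.041, edgeR adjusted p = 1.78e-07). SLITRK6, the other higher gene, had a mean of under 1 CPM over the libraries and passed the filter only through the HDAC8-labelled ones.

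Of 8 drug efflux transporters, 7 were tested, and 2 were higher and 0 lower at both thresholds, 3 higher and 0 lower at the adjusted p alone, with a median log2 fold change of 0.15. ABCB5, a transporter used to mark a subset of stem-like melanoma cells, had 7, 14 and 10 counts in the EV-labelled libraries and 169, 160 and 143 counts in the HDAC8-labelled ones, a log2 fold change of 3.84 (standard error 0.30, edgeR adjusted p = 2.71e-06). ABCB1, the multidrug efflux pump, had 13, 12 and 12 counts against 98, 39 and 47 counts, a log2 fold change of 2.16 (standard error 0.38, edgeR adjusted p = 0.00145). ABCB5 passed the filter on low counts only through the HDAC8-labelled libraries, so that it could be called only as higher. The median of the 7 transporters counts ABCB5 and is raised by it. ABCB5 is not tested when every library needs 10 counts, whereas ABCB1 is. Both stayed at low levels, with means of 6.60 and 2.43 CPM in the HDAC8-labelled libraries. ABCG2, a further pump linked with stem-like cells, did not pass the test (log2 fold change -0.28, edgeR adjusted p = 0.238). Over the 10 lists together, 79 of 133 genes were tested. At both thresholds 7 were higher and 6 lower, against 4.07% and 3.45% of all tested genes. These counts were 4 and 6 when every library needed 10 counts, without ABCB5, ALDH1A2 and SLITRK6. At the adjusted p alone 22 were higher and 16 lower, against 11.1% and 11.7%, and the median log2 fold change was 0.030.

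**Figure D4:**
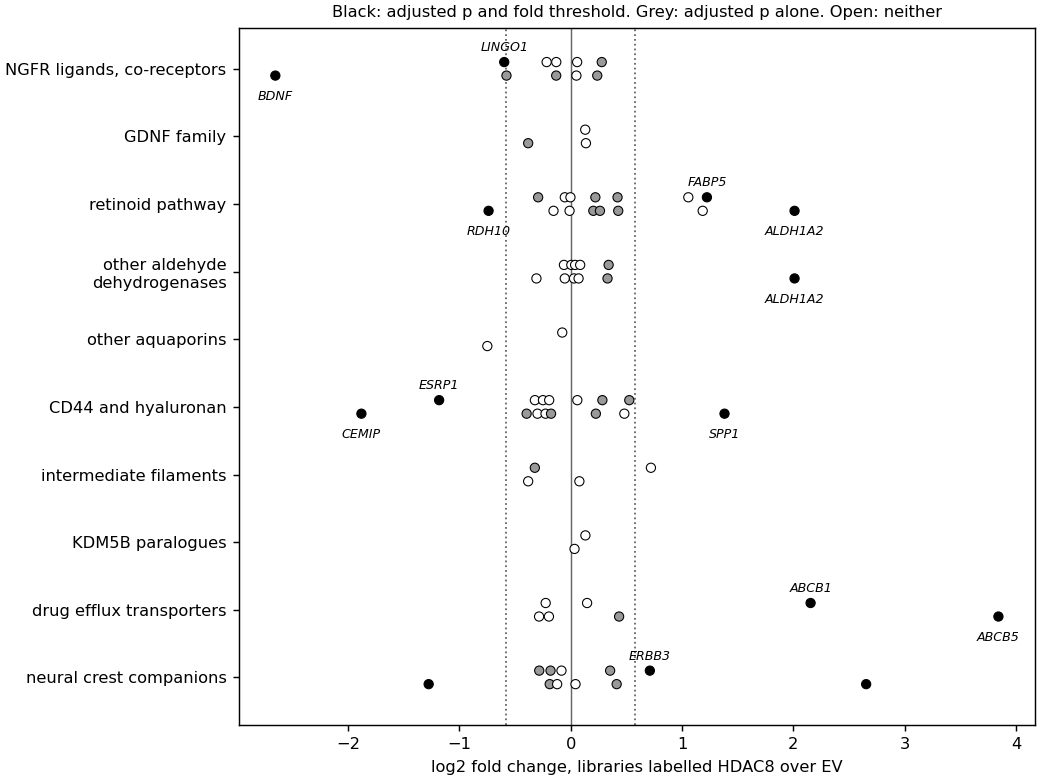
Log2 fold change, libraries labelled HDAC8 over EV, of the tested genes in 10 lists around the markers, 1 point per gene, black where adjusted p and fold threshold were both passed, grey for the adjusted p alone and open otherwise, with the genes described in the text named. Black points lie on both sides of 0, from BDNF at -2.65 to ABCB5 at 3.84; ALDH1A2 is in 2 lists.

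The surroundings of the markers in the genome were compared with them. The tested genes within 2 Mb on either side had median log2 fold changes between -0.060 for the 21 around CD44 and 0.12 for the 13 around RXRG. All 74 neighbours of NGFR had a higher log2 fold change than NGFR, and all 14 neighbours of PROM1 a higher one than PROM1. Of the neighbours of ALDH1A3, 24 of 27 were below it, and so were 41 of 45 for KDM5B and 68 of 76 for NES. RXRG lay among its neighbours, with 6 above and 7 below it, 3 neighbours of CD44 and 1 of ALDH1A1 were lower still, and 1 of AQP1 was higher. Over the whole of chromosome 1, which carries NES, RXRG and KDM5B, 1616 other tested genes had a median of -0.010.

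The gene closest to each marker past both thresholds was sought among 14149 other genes that averaged 1 CPM or more, as the smallest distance between mean-centred log2 CPM values over the 6 libraries. For NGFR it was CORO2B, at 27.5 ± 0.846 and 4.01 ± 0.783 CPM (SD, n = 3) in the groups labelled EV and HDAC8, with a distance of 0.199. For ALDH1A3 it was the noncoding RNA gene OVAAL, at 63.8 ± 1.85 and 162 ± 4.51 CPM (SD, n = 3), with a distance of 0.0156. For NES it was CPN1, at 8.22 ± 1.30 and 14.6 ± 0.485 CPM (SD, n = 3), with a distance of 0.158. With 6 libraries in 2 groups, such closeness reflects mostly a like difference between the groups.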

How the data were processed

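RNA-seq was analysed for the 3 SK-MEL-28 libraries labelled EV and the 3 labelled HDAC8, grouped by their titles. The deposited values are unnormalized estimated counts, 1 row for each Ensembl gene. Per the Methods, reads were trimmed with Trimmomatic, aligned with STAR and quantified with RSEM, and the submitters' processing notes name GRCh38. Labels and Methods differ on the RNA and library kits. A further deposited table with the authors' own fold changes, p-values and group values was not used.

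Counts were rounded and fitted over all genes by edgeR 4.0.16 under R 4.3.3 (TMM scaling after filterByExpr, then glmQLFit and glmQLFTest, no block), with Benjamini-Hochberg adjustment. Standard errors are the absolute log2 fold change over the square root of F. Floors of 3 counts cover counting error only. The thresholds follow the Methods. Alternatives were DESeq2 1.42.0, upper-quartile scaling, other filters, the replicate block, other thresholds and each library left out. The scripts were tested on simulated counts. Positions and exon lengths are from GENCODE 44, promoters from RefSeq, which matched 8 of the 10 markers.

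The markers, lists and tests were chosen with earlier results of these data known. Named genes were the 10 markers, HDAC8, for each list up to 4 genes that averaged 1 CPM or more and passed both thresholds, by size of change, and the nearest gene to each marker past both. Of the genes outside this rule, CD3E, PTPRC, CDH5, KRT5, EPCAM, PECAM1, KRT14, DCN, CD68, PDGFRB, VWF, COL1A1, LUM, PMEL, SOX10, TYR, TYRP1, DCT, MITF, S100B, NTRK3, RET, GFRA1, NCAM1, FGFBP2, AQP6, AQP11, ALDH1A3-AS1, RXRA, RXRB, VIM, KDM5A, KDM5C, PROM2, SLITRK6 and ABCG2 were named after their values were seen. Genes withheld from this text were counted within their lists and are not reported here by name.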

Additional observations from a re-analysis of the deposited data

How the results depend on the processing

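NGFR, PROM1, CD44, ALDH1A3, NES and KDM5B kept their direction and an adjusted p below 0.05 in all 11 other fits. The number of markers higher was 1 when a log2 fold change of 1 was required and 4 without any fold threshold, and 2 to 3 with 1 replicate left out. The number lower was 3 with no fold threshold, PROM1 and CD44 being added. It was 2 with an unadjusted p, 2 when every library needed 10 counts, and 1 to 2 with 1 replicate left out, ALDH1A1 being added. The log2 fold change of RXRG was 0.20 under the replicate block (edgeR adjusted p = 0.0721) and 0.15 to 0.24 with 1 replicate left out, and that of ALDH1A1 was -0.9978 when every library needed 10 counts and -1.24 to -0.76 with 1 replicate left out. HDAC8 ranged from -0.16 to 0.080 with 1 replicate left out, being 0.080 without EV replicate 1, 0.010 without EV replicate 2 and 0.0081 without HDAC8 replicate 3. In the lists, the number of higher genes fell from 7 to 4 when every library needed 10 counts, where ABCB5, ALDH1A2 and SLITRK6 were no longer tested. The cause of the other changes was not tested. Same-numbered libraries did not deviate together (mean correlation across genes -0.0775), so the replicate number marks no known pairing; the block changed no other marker's call. GFRA2, at 0 counts, was below the detection floor, and AQP1 rested on 7 to 17 counts per library.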
